A study of Drosophila melanogaster with 9 samples.

Results

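The peaks described here were called for FLAG, the tag on the architectural protein Pita, and for Pita's partner CP190. They lie on the gene-rich part of the Drosophila melanogaster X chromosome. A peak was taken when its chromosome was X and its summit lay below 22400000 (assembly dm6). The rule used position only. It took 1364 of the 7365 FLAG peaks of Pita ΔCP1+2 embryos (18.5%) and 1270 of the 6901 FLAG peaks of Pita wt embryos (18.4%). It also took 1508 of the 8429 CP190 peaks of Pita ΔCP1+2 embryos (17.9%) and 1181 of the 6586 CP190 peaks of Pita wt embryos (17.9%). Together these were 5323 of 29281 peaks, and 15 to 25 X peaks per list lay beyond the limit.

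Both lines expressed Pita with a 3xFLAG tag from a transgene under the ubiquitous Ubi-p63E promoter, inserted at a common landing site. The paper crossed these transgenes into a pita mutant background, in which it detected no endogenous pita mRNA. Its description of the sequenced embryos does not repeat that background. Pita ΔCP1+2 lacked both segments that contact CP190, and Pita wt was intact. Whole embryos were used, with Oregon-R as the labelled strain, so that cell types and sexes were mixed in every sample. FLAG and CP190 were each precipitated in 2 replicates per line, and 1 preimmune sample of Pita wt was the control for all 4 lists. The labels give a collection of 0 to 12 h, while the methods give a later window. Replicates were merged into 1 list per antibody and line before deposit, so no difference below could be set against a spread between replicates. In the paper's supplement, the self-consistency ratio of replicates exceeded the limit given in its methods for both Pita wt lists. It was within that limit for both Pita ΔCP1+2 lists, so the lists compared between lines differ in replicate consistency. Intervals are 95% intervals for counting error only, are not adjusted for their number, and peaks are not replicates. Arms 2L below 22 Mb, 3L below 23 Mb and 3R above 4 Mb served for comparison, and are the other arms named below. Arm 2R was not examined.

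Pita is a zinc finger protein that binds a long DNA motif and recruits CP190, a protein found at promoters and at boundaries between chromatin domains. CP190 is also brought to DNA by other zinc finger proteins, among them dCTCF. In males the X is transcribed at a raised level by the dosage compensation complex, which contains the roX RNAs, while in females Sxl keeps that complex from forming.

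The sequences below show the Pita motif at the X sites on which the results turn. Each is 30 bases of dm6, read on the strand of the match, with the 21 bases aligned to the study's Pita matrix in capitals. The first 6 belong to strong FLAG peaks, ec to a site that had no peak in Pita ΔCP1+2, and the last 5 to ribosomal protein genes.
Atg8a: taacATTTAGCGAATACATGAACCAaatgg
cib: attcATTTAGCAGAGACACGAACCAcatct
Tlk: tgttACTTAGCGTGTGCACCAACCAtagtt
CR46447: tacgGCAAAGCCAAGACACCAACCAagtcg
Sxl: ctccATTTAGCGAATACACGAACCCattta
inc: accgATCTAGCTAGGACACACACCGcggtt
ec: cttgCTTTAGCCAAGACTCAAACCCacttg
RpL22: tgcgGGATAGCGGAGTTCCCAACCCaggga
RpS14a: cggtATTTAGCATAGACTCCAACCGacacg
RpL7A: ttatTCTTAGCAGAGACTCGCTCCAtttat
RpL17: cttaGCTGAGCGATGGCTTGCACCAtccag
RpS15Aa: gcgaTTTTAGTCAAGCCAGCAACCGcggcc

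The Atg8a sequence lies at chrX:10768410-10768439 on the minus strand and that of cib at chrX:4105859-4105888 on the minus strand. Those of Tlk (chrX:3719858-3719887, minus) and CR46447 (chrX:1953174-1953203, plus) follow, with Sxl at chrX:7098186-7098215 and inc at chrX:1512952-1512981, both on the plus strand. The ec sequence is at chrX:3811472-3811501 on the minus strand. Among the ribosomal protein genes, RpL22 (chrX:765218-765247) and RpS15Aa (chrX:13337728-13337757) match on the minus strand. RpS14a (chrX:7933361-7933390), RpL7A (chrX:6533359-6533388) and RpL17 (chrX:6744396-6744425) match on the plus strand.

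Per Mb of the parts examined, X carried about as many peaks as the other arms. It held 60.9 FLAG peaks per Mb in Pita ΔCP1+2 and 56.7 in Pita wt, and 67.3 CP190 peaks per Mb in Pita ΔCP1+2 and 52.7 in Pita wt. The ratio of X to 2L, 3L and 3R pooled was 1.01 (interval 0.95 to 1.07) for FLAG in Pita ΔCP1+2 and 1.01 (0.95 to 1.08) for FLAG in Pita wt. For CP190 it was 0.978 (0.923 to 1.04) in Pita ΔCP1+2 and 0.972 (0.911 to 1.04) in Pita wt. In every list X lay between 2L and 3R. Over whole arms, pericentromeric parts included, the ratio was 1.10 (1.04 to 1.17) for FLAG in Pita ΔCP1+2, 1.10 (1.03 to 1.17) for FLAG in Pita wt and 1.06 (1.00 to 1.13) for CP190 in Pita ΔCP1+2, with bounds above 1. For CP190 in Pita wt it was 1.06 (0.989 to 1.13).

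X is gene-poor, with 122 annotated genes per Mb against 151 to 161 on the other arms, and per gene start it carried more peaks. For FLAG there were 49.9 X peaks per 100 gene starts against 38.9 on the other arms in Pita ΔCP1+2, and 46.5 against 36.1 in Pita wt. For CP190 there were 55.2 against 44.4 in Pita ΔCP1+2 and 43.2 against 34.9 in Pita wt. X was above each single arm in all 4 lists.

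**Figure D1:**
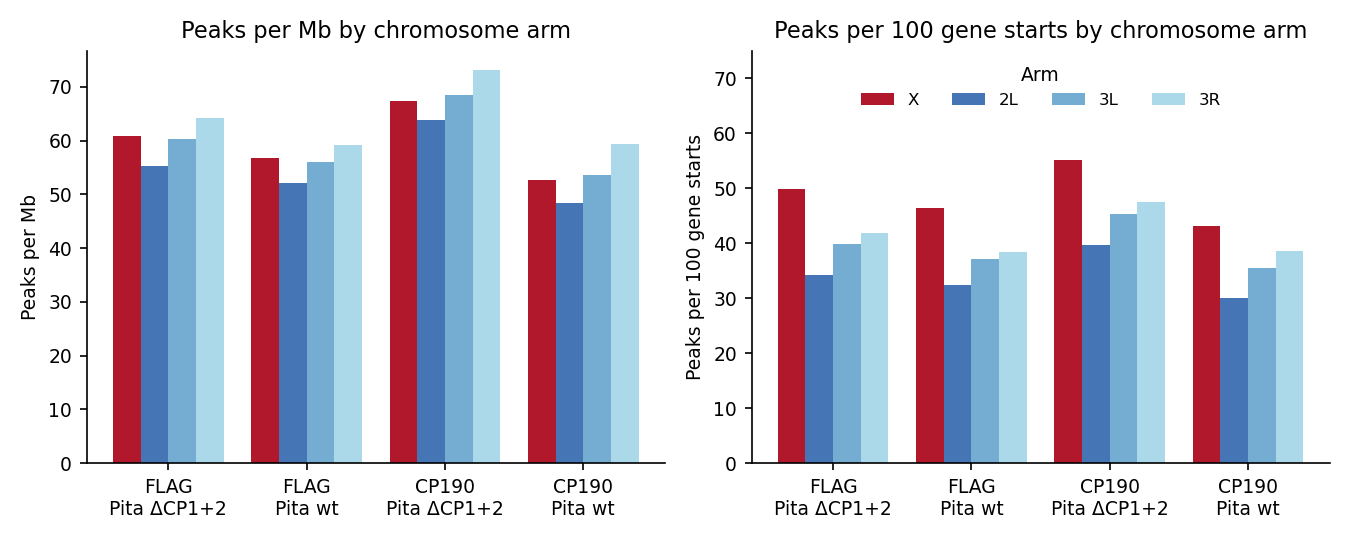
Peaks per Mb (left axis panel) and peaks per 100 annotated gene starts (right axis panel) on X, 2L, 3L and 3R, one bar per arm for each of the 4 lists. Per Mb, X lies between 2L and 3R in each list, and per gene start X is the highest bar in each list.

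The strongest peaks were more often on X. Fold enrichment is the authors' ratio of ChIP to preimmune signal at a peak, and it was used to rank peaks within a list. X held 31 of the 100 strongest FLAG peaks of Pita ΔCP1+2 and 33 of those of Pita wt, and 30 of the 100 strongest CP190 peaks in each line. Its share of the full lists was 17.9 to 18.5%. On 3R, with 24.0 to 25.3% of the lists, lay 19 and 30 for FLAG and 17 and 23 for CP190, in Pita ΔCP1+2 and Pita wt. Among the 3000 strongest peaks of each list the density ratio of X to the other arms was 1.37 for FLAG in both lines. It was 1.41 for CP190 in Pita ΔCP1+2 and 1.28 for CP190 in Pita wt. All 4 of those intervals lie above 1, the lowest bound being 1.17, so the equal density of the full lists does not hold for their strong end. Median fold enrichment was also higher on X in all 4 lists. For FLAG it was 2.11 on X against 2.00 on the other arms in Pita ΔCP1+2, and 2.23 against 2.11 in Pita wt. For CP190 it was 2.16 on X in both lines, against 2.04 in Pita ΔCP1+2 and 2.05 in Pita wt on the other arms. The median rank of X FLAG peaks was 2916 against 3905.5 of 7365 in Pita ΔCP1+2 and 2705.5 against 3628 of 6901 in Pita wt. For CP190 it was 3255.5 against 4523.5 of 8429 in Pita ΔCP1+2 and 2601 against 3486.5 of 6586 in Pita wt.

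Along X the peaks were spread unevenly, and the lists followed the same course. In bins of 1 Mb, the bin from 19 to 20 Mb held the most peaks in every list, with 109 and 107 FLAG peaks and 110 and 93 CP190 peaks in Pita ΔCP1+2 and Pita wt. That bin also held the most gene starts, 186. The bin from 21 to 22 Mb held 22 and 24 FLAG peaks and 31 and 20 CP190 peaks in the same order of lines, with 87 gene starts. Over the 22 bins, Spearman's rho between peaks and the coding share of the bin was 0.67 to 0.74, given as a description. The longest gap between neighbouring summits was 747 kb among FLAG peaks of Pita ΔCP1+2, at the proximal end, where a single weak peak (1.64-fold) with CG14621 as its nearest gene was the last below the limit. The last FLAG peak of Pita wt below it was 2.37-fold in a coding exon nearest GCS2alpha. The last CP190 peaks were 2.16-fold near CG32500 in Pita ΔCP1+2 and 1.99-fold near snoRNA:MeU6-A47 in Pita wt. In all 4 lists the first peak above the limit was at CG14621, with 2.34-fold and 2.12-fold FLAG enrichment and 2.54-fold and 2.13-fold CP190 enrichment in Pita ΔCP1+2 and Pita wt.

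Peaks on X were broader. The median width of FLAG peaks was 610 bp on X against 501 bp on the other arms in Pita ΔCP1+2, and 591.5 bp against 480 bp in Pita wt. The median width of CP190 peaks was 639 bp against 523 bp in Pita ΔCP1+2 and 630 bp against 518 bp in Pita wt. Peaks of 1 kb or more made up 25.1% of X FLAG peaks against 13.5% elsewhere in Pita ΔCP1+2, a difference of 11.5 percentage points (9.06 to 14.1). They made up 21.4% against 11.5% of FLAG peaks in Pita wt, a difference of 9.89 points (7.49 to 12.4). For CP190 they made up 26.7% against 16.1% in Pita ΔCP1+2 (10.5 points, 8.11 to 13.0) and 25.7% against 14.4% in Pita wt (11.4 points, 8.69 to 14.1). The highest share on another arm was 17.4%.

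Most X peaks lay in protein-coding sequence. The summit base was annotated as coding exon in 80.1% of X FLAG peaks against 73.9% elsewhere in Pita ΔCP1+2, and in 76.5% against 72.0% in Pita wt. For CP190 it was 85.4% against 78.2% in Pita ΔCP1+2 and 78.3% against 72.9% in Pita wt, and all 4 differences have intervals above 0. The centres of windows 5 kb to each side fell in coding exons in 25.6 to 27.3% of cases on X, and coding sequence covered 17.3% of the X examined. Median GC content of the X windows was 57.9 to 58.3% against 55.9 to 56.3% on the other arms, while the windows 5 kb away had 43.7 to 44.1% on X. Continuous coding segments under X summits were longer, with a median of 761 to 813 bp against 666 to 695 bp, and 10.4% of all X segments exceeded 1 kb against 8.46% on the other arms.

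Width moved with these features, and X peaks remained broader within most classes of them. Where the summit lay in a coding segment of 1 to 2 kb, the median FLAG width was 1052.5 bp on X against 895 bp elsewhere in Pita ΔCP1+2, and 1004 bp against 836.5 bp in Pita wt. The CP190 medians in that class were 1040 bp against 940 bp in Pita ΔCP1+2 and 1071 bp against 906 bp in Pita wt. Where the summit lay outside coding segments, FLAG medians were 379.5 bp against 366 bp in Pita ΔCP1+2 and 367.5 bp against 363.5 bp in Pita wt. For windows of 60% GC or more, peaks of 1 kb or more were 8.48 to 12.2 points more frequent on X, with all 4 intervals above 0. For windows of 50 to 55% GC the intervals included 0 in both Pita ΔCP1+2 lists, and the CP190 median there was 386.5 bp on X against 400 bp elsewhere. The intervals also included 0 for FLAG peaks of Pita ΔCP1+2 outside coding segments (-0.552 to 4.54) and below 50% GC (-1.40 to 7.51), and for CP190 peaks of Pita wt in segments over 2 kb (-5.04 to 15.9). Read depth and mappability were not analysed here, and their part in the widths was not tested.

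**Figure D2:**
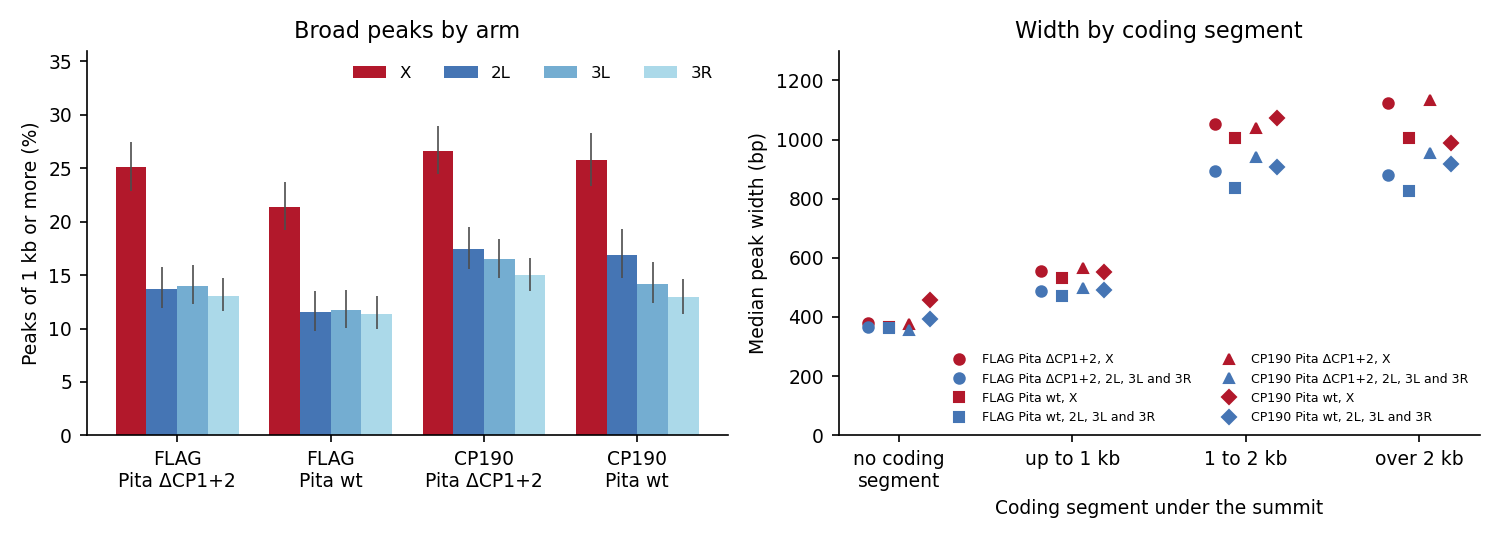
Left, percent of peaks of 1 kb or more by arm and list, with 95% Wilson intervals. Right, median peak width in bp by the length of the coding segment under the summit, with X in red and the other arms in blue and a symbol per list. X exceeds each arm in the left panel, and its points lie above those of the other arms in the right panel.

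The broadest X peaks had their summits in coding exons. A CP190 peak of Pita ΔCP1+2 nearest Hr4, which encodes a nuclear receptor of the ecdysone response, spanned 6730 bp, with 3.35-fold and 3.77-fold FLAG enrichment and 3.98-fold and 3.2-fold CP190 enrichment in Pita ΔCP1+2 and Pita wt. A FLAG peak of Pita ΔCP1+2 nearest Hsp60A, which encodes a mitochondrial chaperonin, spanned 6465 bp. A site nearest CG15459 gave peaks of 5774 bp for FLAG in Pita ΔCP1+2 and of 5826 bp and 5773 bp for CP190 in Pita ΔCP1+2 and Pita wt. All 3 sites had peaks in all 4 lists, at 2.40-fold to 3.98-fold.

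With the summit windows, the X shares of overlapping peaks were close to those of the whole lists. Each summit was extended by 250 bp both ways, and peaks with at least 1 bp of these windows in common were counted as shared. Outside the gene lists, a site is said to lack a peak in a list where no window of that list overlapped. Of the X FLAG peaks of Pita ΔCP1+2, 908 of 1364 (66.6%) overlapped a FLAG peak of Pita wt, where 66.9% of that whole list did. Of the X FLAG peaks of Pita wt, 906 of 1270 (71.3%) overlapped one of Pita ΔCP1+2, beside 71.6% of the whole list. Of the X CP190 peaks of Pita ΔCP1+2, 877 of 1508 (58.2%) were shared with Pita wt, beside 58.7%. Of those of Pita wt, 877 of 1181 (74.3%) were shared with Pita ΔCP1+2, beside 75.1%.

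The antibodies were compared in the same way. In Pita ΔCP1+2, 985 of 1364 X FLAG peaks (72.2%) overlapped a CP190 peak, beside 73.5% of the whole list, and 984 of 1508 X CP190 peaks (65.3%) overlapped a FLAG peak, beside 64.2%. In Pita wt, 818 of 1270 X FLAG peaks (64.4%) overlapped a CP190 peak, beside 65.3%, and 813 of 1181 X CP190 peaks (68.8%) overlapped a FLAG peak, beside 68.2%. The 8 differences between X and the other arms ran from -1.21 to 1.20 percentage points, and each interval includes 0. This depended on the setting, first for CP190 between lines. With the deposited peak boundaries the X share of Pita wt peaks found in Pita ΔCP1+2 was 2.89 points above the other arms (0.210 to 5.44), and with the 5000 strongest peaks of each list it was 4.39 points above (0.943 to 7.75), while the reverse share was 4.19 points below (difference -4.19, interval -7.60 to -0.834). Between antibodies, the X share of CP190 peaks with a FLAG peak was above the other arms with deposited boundaries, by 3.72 points (1.02 to 6.34) in Pita ΔCP1+2 and 3.70 points (0.739 to 6.55) in Pita wt. In Pita wt it was also above with the 5000 strongest peaks, by 3.97 points (0.530 to 7.32). With an overlap of at least 250 bp, the difference for FLAG peaks of Pita wt with a CP190 peak was -3.60 points (-6.69 to -0.538). The 4 lists share the preimmune control, so that coincidence of peaks is not independent of it.

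Within rank classes and with the summit windows, fewer X peaks were shared between lines in the FLAG lists and in the CP190 list of Pita ΔCP1+2, mainly in the middle classes. Each list was cut by fold enrichment into 4 rank classes of equal size, class 1 being the strongest. In class 1, 82.7% of X CP190 peaks of Pita ΔCP1+2 (n = 508) were shared with Pita wt, a difference of -8.34 points from the other arms (-12.2 to -4.79). In class 2 the share was 57.5% (n = 442), a difference of -11.4 points (-16.7 to -6.13). FLAG peaks of Pita ΔCP1+2 in class 2 were shared in 67.3% of cases on X, -10.3 points from the other arms (-15.8 to -4.92), and FLAG peaks of Pita wt in that class in 71.7%, -5.96 points (-11.4 to -0.844). CP190 peaks of Pita wt differed from the other arms by intervals that include 0 in all 4 classes. Between antibodies, X CP190 peaks of Pita ΔCP1+2 in class 2 overlapped a FLAG peak in 64.7% of cases, -10.2 points from the other arms (-15.3 to -5.20). X FLAG peaks of Pita wt in class 3 overlapped a CP190 peak in 51.1%, -8.82 points (-15.1 to -2.50). Rank classes were not counted with the deposited boundaries. X peaks were broader, and the part of peak width in these differences was not tested.

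**Figure D3:**
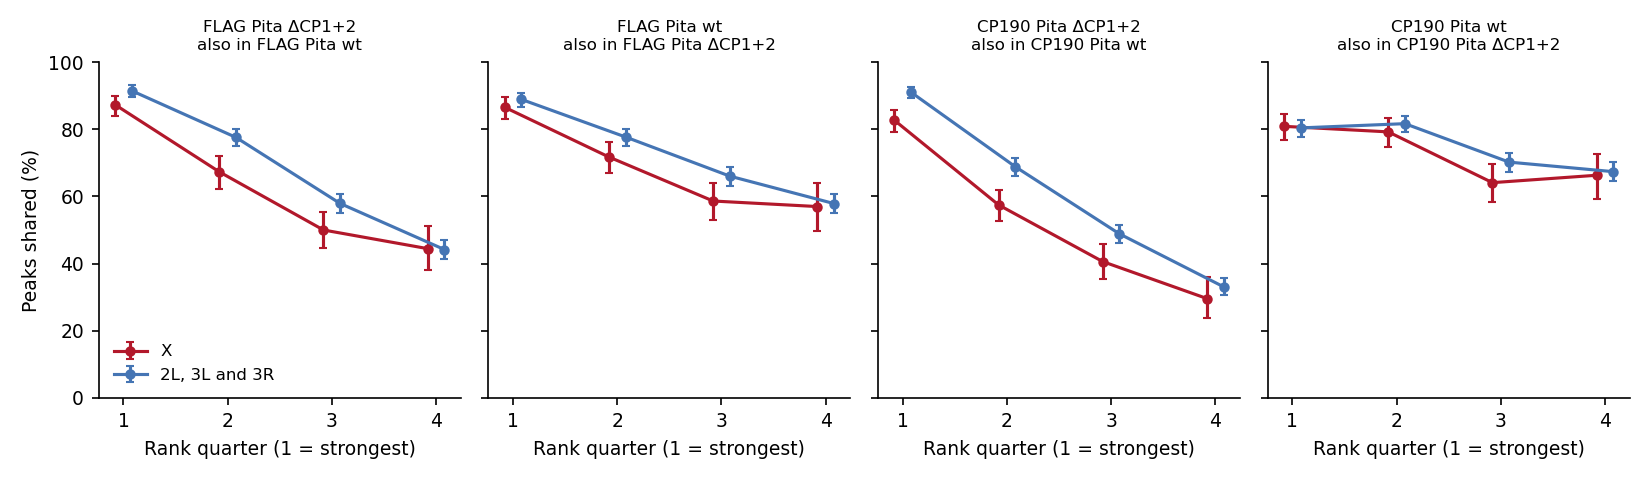
Percent of peaks shared with the list of the other line (vertical axis) by rank class within the list (horizontal axis, 1 = strongest), for X in red and 2L, 3L and 3R in blue, with 95% Wilson intervals. X lies below the other arms in classes 1 to 3 of the FLAG lists and of the CP190 list of Pita ΔCP1+2.

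A large common core was present in every list. Of the X FLAG peaks of Pita ΔCP1+2, 591 (43.3%) overlapped peaks of all 3 other lists, against 46.5% on the other arms, and 168 (12.3%) overlapped none, against 12.3% on the other arms. Of the X CP190 peaks, 286 (19.0%) of those of Pita ΔCP1+2 and 125 (10.6%) of those of Pita wt overlapped no other list, against 20.5% and 12.6% on the other arms. Of those 125, 28 (22.4%) lay within 250 bp of a gene start, against 15.4% on the other arms. Overlap with all 3 other lists was lower on X in the remaining lists too, at 46.6% against 50.1% of FLAG peaks of Pita wt. For CP190 it was 39.3% against 40.8% in Pita ΔCP1+2 and 50.4% against 51.7% in Pita wt. These differences and the difference at gene starts were not tested. Another 140 X CP190 peaks of Pita wt had no CP190 peak in Pita ΔCP1+2 but a FLAG peak of Pita wt. Of these, 70 also had a FLAG peak of Pita ΔCP1+2 (5.93% of that X list, against 4.62% on the other arms). The remaining 70 had none (5.93% against 4.67%). These differences were not tested.

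Strong matches to the Pita matrix were found in few X peaks. At a match p of 1e-06 or less, 18 of 1364 X FLAG peaks of Pita ΔCP1+2 (1.32%) and 34 of 1270 of Pita wt (2.68%) held a match, against 0.567% and 1.54% on the other arms. For CP190 these were 6 of 1508 in Pita ΔCP1+2 (0.398%) and 42 of 1181 in Pita wt (3.56%), against 0.199% and 1.79%. Windows 5 kb away on X held such a match in 0.236 to 0.431% of cases, so that the CP190 peaks of Pita ΔCP1+2 lay at that level. The difference between X and the other arms was 1.14 points (0.271 to 2.23) for FLAG in Pita wt and 1.76 points (0.739 to 3.03) for CP190 in Pita wt. The difference depended on the threshold: at 1e-05 it was 0.626 points (-0.191 to 1.65) for FLAG in Pita ΔCP1+2, 0.468 points (-0.649 to 1.79) for FLAG in Pita wt and 1.32 points (0.00304 to 2.86) for CP190 in Pita wt. At 0.0001, the threshold used for the lists as a whole, it was 0.852 points (-1.03 to 2.89) for FLAG in Pita ΔCP1+2, -0.796 points (-2.76 to 1.34) for FLAG in Pita wt, -0.0200 points (-1.67 to 1.78) for CP190 in Pita ΔCP1+2 and 2.50 points (0.220 to 4.95) for CP190 in Pita wt. At that threshold a match was found in 9.88 to 16.3% of X peaks, against 6.16 to 7.20% of the windows 5 kb away. Matches were not adjusted for the higher GC content of the peak windows.

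X also held more such matches, and more of them lay in peaks. The X examined had 120 matches at 1e-06 or less, or 5.36 per Mb against 3.95 per Mb on the other arms, a ratio of 1.35 (1.09 to 1.68). Of the 120, 24 (20.0%) lay within 250 bp of a FLAG summit of Pita ΔCP1+2 and 42 (35.0%) of one of Pita wt, against 9.34% and 23.2% of the 289 on the other arms. For CP190, 8 (6.67%) lay at a summit of Pita ΔCP1+2 and 49 (40.8%) at one of Pita wt, against 3.46% and 26.3%. The difference from the other arms was 10.7 points (3.35 to 19.2) for FLAG in Pita ΔCP1+2, 11.8 points (2.32 to 21.8) for FLAG in Pita wt and 14.5 points (4.59 to 24.7) for CP190 in Pita wt. For CP190 in Pita ΔCP1+2 it was 3.21 points, with an interval of -1.08 to 9.35. Matches were counted singly, and several can lie in 1 peak. The 24, 42 and 49 X matches stand beside 18, 34 and 42 X peaks that held a match. On the other arms 27, 67 and 76 matches stand beside 25, 63 and 71 peaks. The intervals treat matches as independent, and are too narrow where matches cluster.

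At the X sites with a strong match, CP190 peaks were mostly missing from Pita ΔCP1+2. Of the 42 X CP190 peaks of Pita wt with a match at 1e-06 or less, 8 (19.0%, interval 9.98 to 33.3%) had a CP190 peak in Pita ΔCP1+2, against 77.5% (74.7 to 79.9%) of the 989 X peaks with no match at 0.0001. On the other arms 11 of 71 had one. The X classes also differ in strength, with a median CP190 enrichment of 4.27-fold with a strong match and 2.15-fold without a match. Among the 50 strongest X CP190 peaks of Pita wt, 7 of 25 with a strong match and 12 of the other 25 had one. The part of strength and position in this contrast was not tested. Of the 34 X FLAG peaks of Pita wt with such a match, 19 (55.9%, 39.5 to 71.1%) had a FLAG peak in Pita ΔCP1+2, against 72.0% of those with no match. All 18 X FLAG peaks of Pita ΔCP1+2 with such a match had a peak in Pita wt. In Pita ΔCP1+2, 7 of these 18 overlapped a CP190 peak, while 32 of the 34 in Pita wt did. Whether a missing peak reflects less binding or a value below the calling threshold cannot be told apart in these lists.

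**Figure D4:**
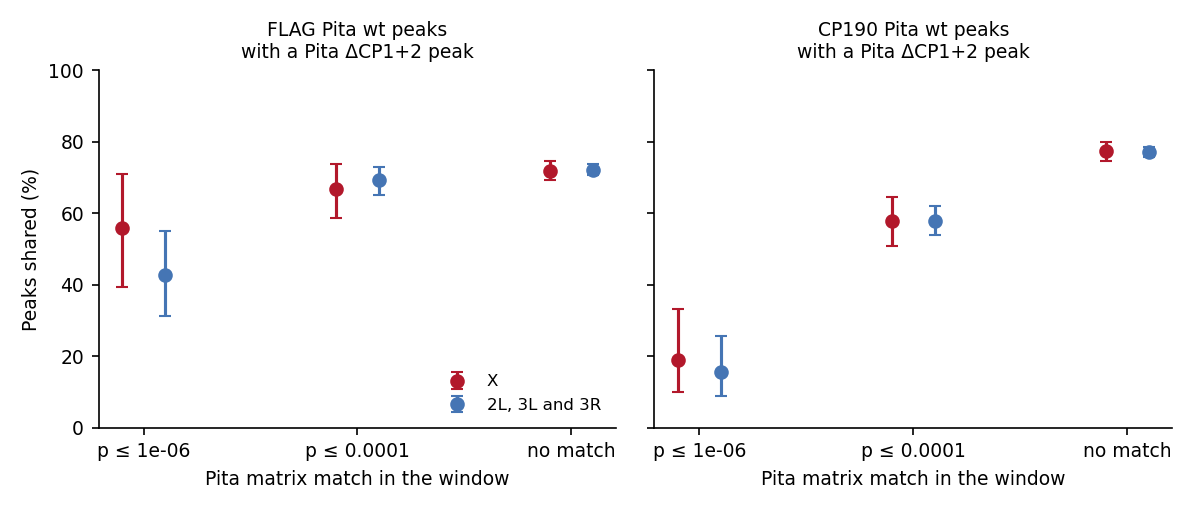
Percent of Pita wt FLAG peaks (left) and CP190 peaks (right) that had a peak in Pita ΔCP1+2, by class of Pita matrix match in the window, for X in red and 2L, 3L and 3R in blue, with 95% Wilson intervals. The class of 1e-06 or less is lowest in both panels, at 19.0% for CP190 on X.

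The strongest X site in Pita wt was upstream of Atg8a, which encodes a ubiquitin-like protein of autophagosome formation. Its FLAG enrichment was 6.68-fold in Pita ΔCP1+2 (rank 3 of the list) and 12.4-fold in Pita wt (rank 1). Its CP190 enrichment was 5.10-fold in Pita ΔCP1+2 (rank 9) and 49.4-fold in Pita wt (rank 1). It was among the few strong motif sites with a CP190 peak in both lines.

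At the next sites a CP190 peak was present in both lines, with lower fold enrichment in Pita ΔCP1+2. The CP190 ranks come from lists of 8429 peaks in Pita ΔCP1+2 and 6586 in Pita wt. At cib, which encodes an actin-binding protein with thymosin repeats, FLAG ranked 4 in Pita ΔCP1+2 and 3 in Pita wt, while CP190 ranked 661 (2.70-fold) and 4 (27.6-fold). Between Tlk and Rala, CP190 ranked 205 in Pita ΔCP1+2 and 3 in Pita wt. At the noncoding gene CR46447, FLAG was 3.96-fold in Pita ΔCP1+2 and 6.97-fold in Pita wt, and CP190 was 3.6-fold (rank 53) and 13.2-fold (rank 18).

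Other sites had no CP190 peak in Pita ΔCP1+2. At inc, which encodes an adaptor of a ubiquitin ligase that acts in sleep, FLAG was 3.12-fold in Pita ΔCP1+2 and 4.68-fold in Pita wt, and CP190 was 10.6-fold in Pita wt. At CrebB, a transcription factor gene of the CREB family, FLAG was 3.03-fold in Pita ΔCP1+2 and 5.24-fold in Pita wt, and CP190 was 9.01-fold in Pita wt. At CG2924 FLAG was 2.63-fold and 4.96-fold in the same order of lines, and CP190 was 8.11-fold in Pita wt. At ec, which encodes a ubiquitin protease-like protein needed for eye patterning, peaks were present only in the Pita wt lists, 4.06-fold for FLAG and 11.9-fold for CP190. CG3009 likewise had 3.94-fold FLAG and 4.37-fold CP190 enrichment in Pita wt and no peak in Pita ΔCP1+2.

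Among the 50 strongest X CP190 peaks of Pita ΔCP1+2, 38 had their summit in a coding exon, 5 lay at a gene start and 2 held a strong match. Among the 50 strongest of Pita wt, 3 had their summit in a coding exon, 35 lay at a gene start and 25 held a strong match. Of those 50 in Pita wt, 19 had a CP190 peak in Pita ΔCP1+2, 7 of them among the 25 with a strong match and 12 among the other 25. Of the 50 in Pita ΔCP1+2, 46 had one in Pita wt. The 50 strongest were therefore different kinds of sites in the lines, with a median GC content of 63.2% in Pita ΔCP1+2 and 43.3% in Pita wt.

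Gene starts behaved likewise over the whole X list. Within 250 bp of a gene start lay 6.83% of X CP190 peaks of Pita ΔCP1+2 and 11.1% of those of Pita wt. Of the 131 such peaks of Pita wt, 64 (48.9%, 40.5 to 57.3%) had a CP190 peak in Pita ΔCP1+2, against 78.3% (75.1 to 81.2%) of the 719 beyond 1000 bp. On the other arms 48.6% of gene-start peaks had one. For FLAG, 70 of 116 gene-start peaks of Pita wt (60.3%) had a peak in Pita ΔCP1+2, against 71.2% beyond 1000 bp.

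Several strong X CP190 sites without a Pita match at 0.0001 were present in both lines. The strongest CP190 peak of all in Pita ΔCP1+2 lay near snoRNA:Psi28S-3342, 12.8-fold (rank 1) against 30.3-fold (rank 2) in Pita wt, with a FLAG peak only in Pita wt (3.99-fold). CP190 was 4.35-fold in Pita ΔCP1+2 and 9.09-fold in Pita wt near CG34435, 4.55-fold and 8.49-fold near CG43658, and 4.14-fold and 7.22-fold near upd2, a JAK/STAT ligand gene, with no FLAG peak at any of these 3. Near Snx27, CP190 was 4.98-fold and 6.96-fold and FLAG 2.41-fold and 3.50-fold in the same order of lines. The word AGGTGGCGC, the core of the dCTCF motif, was present at CG43658 and upd2. These sites were picked by their values after the lists had been examined.

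Words of other DNA-binding proteins were counted on both strands of the X windows. The dCTCF core AGGTGGCGC was found in 1.91% and 1.97% of FLAG peaks and 2.12% and 2.37% of CP190 peaks of Pita ΔCP1+2 and Pita wt, against 0.513 to 0.696% of windows 5 kb away. On the other arms it was in 0.999 to 1.64% of peaks, against 0.318 to 0.409% of windows 5 kb away. The ratio of peaks to those windows for FLAG was 3.71 on X and 2.44 elsewhere in Pita ΔCP1+2, and 2.94 and 3.38 in Pita wt. For CP190 it was 3.05 and 3.56 in Pita ΔCP1+2, and 4.00 and 4.81 in Pita wt. GAGAGAGA, a repeat bound by GAF and CLAMP, was rarer in X CP190 peaks than 5 kb away, at 1.26% against 4.18% in Pita ΔCP1+2 and 1.78% against 3.81% in Pita wt. CACACACA was in 5.70 to 7.95% of X peaks against 12.1 to 12.8% of the windows 5 kb away. TATCGATA, bound by DREF, was in 0.663% of X CP190 peaks of Pita ΔCP1+2 against 2.19% of windows 5 kb away, and in 1.95% against 2.62% in Pita wt. GGTCACACT, bound by M1BP, was in 0.663% against 0.663% in Pita ΔCP1+2 and in 1.44% against 0.762% in Pita wt. On the other arms the GA repeat and the DREF word in CP190 peaks, and the CA repeat in all lists, were likewise rarer than in windows 5 kb away. Median GC content was 57.9 to 58.3% in X peak windows against 43.7 to 44.1% in those 5 kb away. On the other arms it was 55.9 to 56.3% against 43.1 to 43.5%. The word counts were not adjusted for GC content, and its part in these higher and lower counts was not tested.

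Of 2158 protein-coding genes on the X examined, 528 (24.5%) had a FLAG summit of Pita ΔCP1+2 within 1000 bp of a transcript start and 502 (23.3%) one of Pita wt. For CP190 these were 580 (26.9%) in Pita ΔCP1+2 and 511 (23.7%) in Pita wt. On the other arms 18.6 to 22.9% of 8736 genes had one, so X genes had a nearby peak more often in each list.

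Within 1000 bp of a transcript start, ribosomal protein genes had peaks mainly in the Pita wt lists. Of 14 on X, 2 had a FLAG peak in Pita ΔCP1+2 and 6 in Pita wt, and 1 had a CP190 peak in Pita ΔCP1+2 and 7 in Pita wt. The contrast depended on the distance: within 2000 bp, 8 and 10 had a FLAG peak and 6 and 11 a CP190 peak in the same order of lines. The values that follow are for peaks within 1000 bp. At RpL22 the Pita wt peaks were 2.94-fold for FLAG and 4.63-fold for CP190, and at RpL7A they were 2.10-fold and 4.47-fold, with no peak in Pita ΔCP1+2 at either. RpL17 had 2.31-fold FLAG and 4.06-fold CP190 enrichment and RpS15Aa had 2.87-fold and 3.85-fold, again in Pita wt alone. At RpS14a FLAG was 2.22-fold in Pita ΔCP1+2 and 3.10-fold in Pita wt, and CP190 was 4.62-fold in Pita wt only. These 5 genes carry the motif matches shown above, at 3.54e-08 for RpS14a, 9.9e-08 for RpL7A, 7.5e-07 for RpL22, 7.15e-06 for RpL17 and 1.37e-05 for RpS15Aa. RpS10b had peaks in all 4 lists, in a coding exon and without a match. RpS14a and RpS14b are near-identical neighbours, and only uniquely aligned reads were kept.

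**Figure D5:**
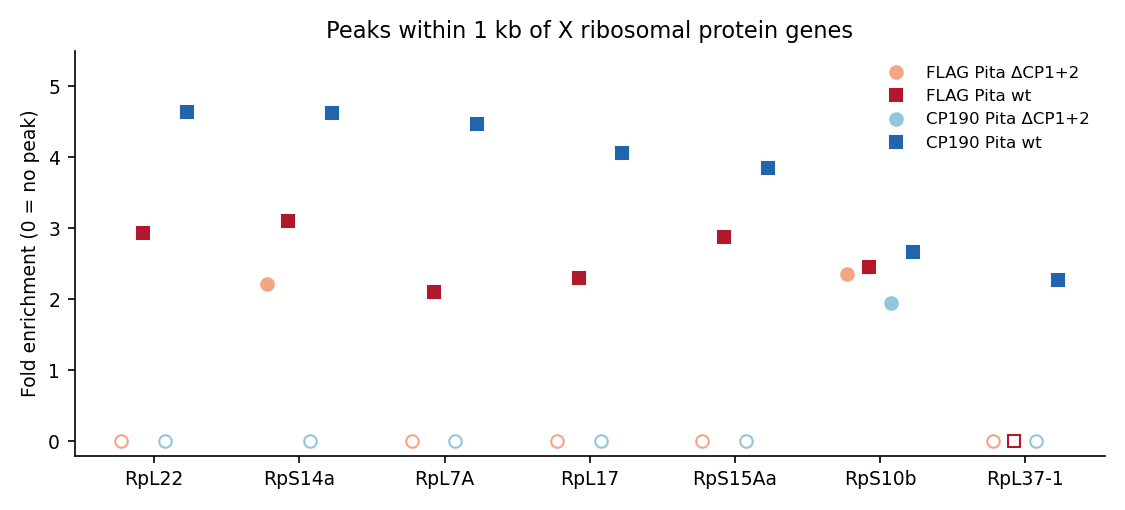
Fold enrichment (vertical axis) of the strongest peak within 1 kb of each X ribosomal protein gene that had a peak, in the 4 lists, with open symbols at 0 where no peak was called. CP190 peaks of Pita wt stand at 3.85-fold to 4.63-fold at 5 genes that have none in Pita ΔCP1+2.

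Among 9 genes of sex determination and dosage compensation, 5 had a FLAG peak in Pita ΔCP1+2 and 4 in Pita wt, and 4 had a CP190 peak in each line. At Sxl, the master gene of female development, FLAG was 3.23-fold in Pita ΔCP1+2 and 4.75-fold in Pita wt, and CP190 was 8.70-fold in Pita wt with no peak in Pita ΔCP1+2. At mof, the acetyltransferase gene of the dosage compensation complex, peaks lay in a coding exon in all 4 lists, at 1.80-fold to 2.53-fold. No list had a peak within 1000 bp of a transcript start of roX1 or roX2. The nearest summits were 6.22 to 6.25 kb away for roX1 and 1.55 to 1.62 kb away for roX2.

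Of 14 classic X loci, 3 had a FLAG peak in Pita ΔCP1+2 and 4 in Pita wt, and 4 and 5 had a CP190 peak in the same order of lines. The strongest was at N, the Notch receptor gene, where CP190 was 4.18-fold in Pita ΔCP1+2 (rank 17) and 17.0-fold in Pita wt (rank 10). A FLAG peak was present there in Pita wt only, at 3.70-fold. Its best matrix match had a p of 2.34e-05.

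Of 18 embryonic transcription factor genes, 8 had a FLAG peak in Pita ΔCP1+2 and 7 in Pita wt, and 6 and 8 had a CP190 peak. The pair-rule gene run had coding exon peaks in all 4 lists, 2.44-fold and 3.27-fold for FLAG and 2.62-fold and 2.54-fold for CP190 in Pita ΔCP1+2 and Pita wt. Of 17 signalling genes, 3 and 5 had a FLAG peak and 5 and 8 a CP190 peak. The JAK/STAT ligand gene upd1 had 3.03-fold CP190 enrichment in Pita ΔCP1+2 and 2.82-fold in Pita wt. Of 15 genes of chromatin and architectural proteins, 7 and 6 had a FLAG peak and 6 and 8 a CP190 peak. With so few genes in each list, the intervals of these shares are wide, for example 30.1 to 75.2% for the last.

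Some X peaks of Pita ΔCP1+2 overlapped no summit window of Pita wt for the same antibody. Such FLAG peaks were led by sites in coding exons nearest Hers (3.22-fold), pico (3.16-fold) and BCL7-like (2.98-fold). Their widths were 2218, 3316 and 3295 bp. Such CP190 peaks were led by Rcd-1 (3.44-fold), CG9360 (3.35-fold), Gmap (3.28-fold), raskol (3.18-fold) and CG3556 (2.93-fold). Whether a Pita wt peak with a more distant summit reached these sites was not counted. None of these 8 windows held a Pita match at 0.0001. Of the 5 CP190 sites, Rcd-1, CG9360 and raskol had FLAG peaks in both lines, and CG3556 had one in Pita ΔCP1+2 (2.73-fold). CG3106 and CG14218, coding exon sites without a match, were among the strongest sites present in all 4 lists, at 3.47-fold to 4.13-fold and 3.64-fold to 3.92-fold.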

How the data were processed

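ChIP-seq with antibodies to FLAG and to CP190 was done on 9 samples, preimmune included. The authors aligned reads with Bowtie version 2 to dm6, kept unique concordant pairs, called peaks with MACS2 against 1 preimmune sample and merged 2 replicates per list with IDR. They trimmed reads with cutadapt and removed duplicates with Picard. The deposited fold enrichment is a ratio over the preimmune sample. The deposited −log10 p-value of each peak was read but supports no statement. Read depth was not analysed. The columns of the IDR comparison were not used.

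Summits were extended by 250 bp on each side. Shares have Wilson intervals, differences Newcombe intervals and density ratios exact conditional binomial intervals. No test was made, since each list pools its replicates. The study's Pita matrix (21 positions) was scanned on both strands, with exact p-values under equal base frequencies. The matrix was read from extracted text of a supplementary file. Windows 5 kb to each side on the same arm served as background. Annotation was Ensembl release 115, with a gene named by the nearest transcript start. Calculations were tested on simulated data. Python 3.11.15, numpy 2.4.6, pandas 2.3.3, scipy 1.17.1 and matplotlib 3.10.9 were used.

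Members, gene lists and tests were chosen with earlier results of these data known. The rank classes, the classes of coding segment and GC content, the count of all matrix matches per arm, the 50 strongest peaks and the sites without a match were added after the tables had been seen. The differences between X and the other arms were added to the comparison of settings at that stage, beside the shares themselves. Sites named were the 10 strongest FLAG peaks of Pita wt with a match at 1e-06 or less, the 5 widest and the 5 strongest in all lists. Also named were the strongest peaks with no overlapping summit window in the other line (5 for CP190, 3 for FLAG). Up to 3 genes per list, roX1 and roX2, and the peaks beside the X limit were named too. Not every site so chosen is described, and further ribosomal protein genes are named because their counts are given.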

Additional observations from a re-analysis of the deposited data

How the results depend on the processing

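No paired analysis was possible because every list merges its replicates, and leaving out a replicate was not possible either. Values are given in the order FLAG Pita ΔCP1+2, FLAG Pita wt, CP190 Pita ΔCP1+2, CP190 Pita wt, and the causes of the shifts were not tested beyond what a setting itself changes.

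The density ratio of X to the other arms was 1.1, 1.1, 1.06 and 1.06 over whole arms, with intervals above 1 except for the last, 1.28, 1.29, 1.24 and 1.24 per gene start, 1.23, 1.21, 1.29 and 1.12 with the 5000 strongest peaks and 1.37, 1.37, 1.41 and 1.28 with the 3000 strongest. Merging overlapping windows kept it within its interval. The percent of X peaks of 1 kb or more was 30.0, 24.7, 32.4 and 28.3 with the 3000 strongest.

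Shares between lines, each list over the other line, were 69.7, 76.6, 61.5 and 80.4% with deposited boundaries and 62.2, 66.9, 54.4 and 69.5% with an overlap of at least 250 bp. With the 5000 strongest peaks they moved to 66.4% for FLAG Pita wt, 60.7% for CP190 Pita ΔCP1+2 and 66.5% for CP190 Pita wt, and with the 3000 strongest to 65.8% for FLAG Pita wt and 63.0% for CP190 Pita wt. Shares between antibodies were 77.7, 68.8, 69.8 and 73.2% with deposited boundaries and 68.3, 59.3, 61.7 and 63.8% with 250 bp. With the 5000 strongest FLAG Pita ΔCP1+2 moved to 67.7%, and with the 3000 strongest FLAG Pita ΔCP1+2, FLAG Pita wt and CP190 Pita wt moved to 63.0, 61.5 and 64.5%.

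The difference in sharing between X and the other arms moved, for CP190 Pita wt over the other line, to 2.89 points with deposited boundaries, 4.39 with the 5000 and 4.45 with the 3000 strongest, and for CP190 Pita ΔCP1+2 to -4.19 with the 5000 strongest. All 4 intervals exclude 0, so the equality of X and the other arms in CP190 sharing depends on these settings. It moved for FLAG Pita wt over the other line to 2.41 with deposited boundaries. For FLAG over CP190 in Pita ΔCP1+2 it was 1.82 with deposited boundaries, 3.25 with the 5000 and 1.87 with the 3000 strongest, and for CP190 over FLAG in Pita wt it was 4.60 with the 3000 strongest, with an interval above 0. Intervals also lay off 0 for CP190 over FLAG with deposited boundaries (3.72 in Pita ΔCP1+2 and 3.70 in Pita wt), for CP190 over FLAG in Pita wt with the 5000 strongest (3.97) and for FLAG over CP190 in Pita wt with 250 bp (-3.60).

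The percent of X peaks with a Pita match was 2.42, 3.94, 0.995 and 5.33 at 1e-05, 1.32, 2.68, 0.398 and 3.56 at 1e-06, and 4.77, 6.46, 3.71 and 8.89 within 100 bp of the summit. Within 1000 bp of a gene start lay 36.1, 36.4, 36.1 and 39.1% of X peaks. The difference from the other arms there was -2.00 points for FLAG Pita wt and -0.519 for CP190 Pita ΔCP1+2, and for CP190 Pita wt it turned to -0.179, where it was 2.01 within 250 bp. Protein-coding genes with a peak were 11.4, 12.0, 12.9 and 12.5% within 500 bp and 39.8, 37.0, 44.3 and 37.8% within 2000 bp, and their difference from the other arms moved to 2.79 points for FLAG Pita ΔCP1+2 within 500 bp and 6.29 for CP190 Pita ΔCP1+2 within 2000 bp.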
